A study of Mus musculus with 4 samples.

Results

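The collagen genes are the rows of the deposited expression table named by the pattern Col, a number, a and a number. They numbered 40 of the 23453 genes in the table. RNA came from hippocampal neurons of newborn C57BL/6NCrl mice, grown in culture to day 12. In the AP bursting group the neurons were kept for 4 h with 50 µM bicuculline, which blocks GABA-A receptors, so that inhibition is lost and action potentials (AP) come in bursts. The control group received the vehicle DMSO and kept its basal activity. Each group had 2 libraries, and the series names 2 independent experiments on separate cell preparations. A primary culture of this kind can also hold glia and cells of vessels and meninges, and the table does not tell which cell made a transcript.

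Collagens are secreted or membrane proteins whose chains, rich in glycine and proline, wind around each other into a long helix. Fibrillar collagens form the fibres of connective tissue, collagen IV forms the sheet of basement membranes around vessels and at the surface of the brain, and FACIT collagens attach to fibres. The transmembrane collagen Col25a1 is made by neurons, and the multiplexins Col15a1 and Col18a1 lie at basement membranes. In adult brain most collagen lies in vessels and meninges.

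The table holds the mean of normalized reads of each group. The reads of both libraries behind each mean were worked out from the steps in the values, and a single solution was found for all 40 collagen genes in both groups. The libraries carry no label in the table, so each is named here by its depth, deep or shallow. The deep libraries are treated as 1 pair and the shallow libraries as the other, which is inferred from the values and not from the labels. Resolved reads, summed over the genes resolved in each group, came to 25350935 and 13098608 in the AP bursting libraries (deep and shallow). In the deep and shallow control libraries they came to 20954659 and 13337809. Values not resolved numbered 120 in AP bursting and 282 in controls, the most abundant genes among them. The totals are thus lower limits of the depth, taken over different genes, and do not compare depth between the groups. Size factors were 1.27 and 0.661 in the AP bursting libraries (deep and shallow), against 1.33 and 0.914 in controls. The 291 genes not resolved in at least 1 group hold 31.1% of the AP bursting and 30.0% of the control signal. Counts for collagens came to 10972 and 8523 reads in the AP bursting libraries, and 9987 and 11359 in the controls.

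AP bursting changed few collagen genes, and by a wide margin Col10a1 changed most. Col10a1 rose 12.4-fold, Col15a1 had a fold of 0.246 without passing the authors' test, and the other 32 collagens with a mean of at least 10 normalized reads over both groups had folds between 0.492 and 1.77. At an adjusted p under 0.05 the authors' deposited table had 1 of 40 collagens higher and 0 lower, and 38 had an adjusted p of 1. Over all its genes, 0.61% were higher and 0% lower. limma with the pair of libraries as a replicate block, two-sided with Benjamini-Hochberg adjustment over all genes, called 2 collagens higher and 1 lower, where it called 6.87% of 20226 genes higher and 6.1% lower. These were Col10a1 and Col5a2 (higher) and Col15a1 (lower). Over 40 genes these shares give counts near those found, so the number of calls does not set the collagens apart. With 1 residual degree of freedom, the p-values and SE of this fit take their variance from a trend over genes. They do not measure the spread of the single gene, and none here speaks for more than 2 preparations. limma without the block called 0 collagens, with 2 at an unadjusted p under 0.05.

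The median log2 fold of the 34 collagens with a mean of at least 10 was 0.18, beside -0.01 for all genes at that level. The deep pair gave 0.17 and the shallow pair 0.17. When libraries were scaled to their total reads over the 23162 genes resolved in both groups, a set that leaves out the most abundant genes, the median of all genes stood at -0.16 (log2) and the collagen median at -0.019. Both AP bursting libraries lay above both control libraries for 2 collagens (Col3a1 and Col10a1) and below them for 2 (Col13a1 and Col15a1). Among all genes at that level 11.6% lay above and 11.9% below. The summed signal of the 40 genes was 8637 and 12901 normalized reads in the AP bursting libraries (deep and shallow), against 7484 and 12424 in the controls (deep and shallow). Those sums overlap between the groups. In bulk RNA, fewer cells of a type and less RNA per cell cannot be told apart, for this and every level given here.

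**Figure D1:**
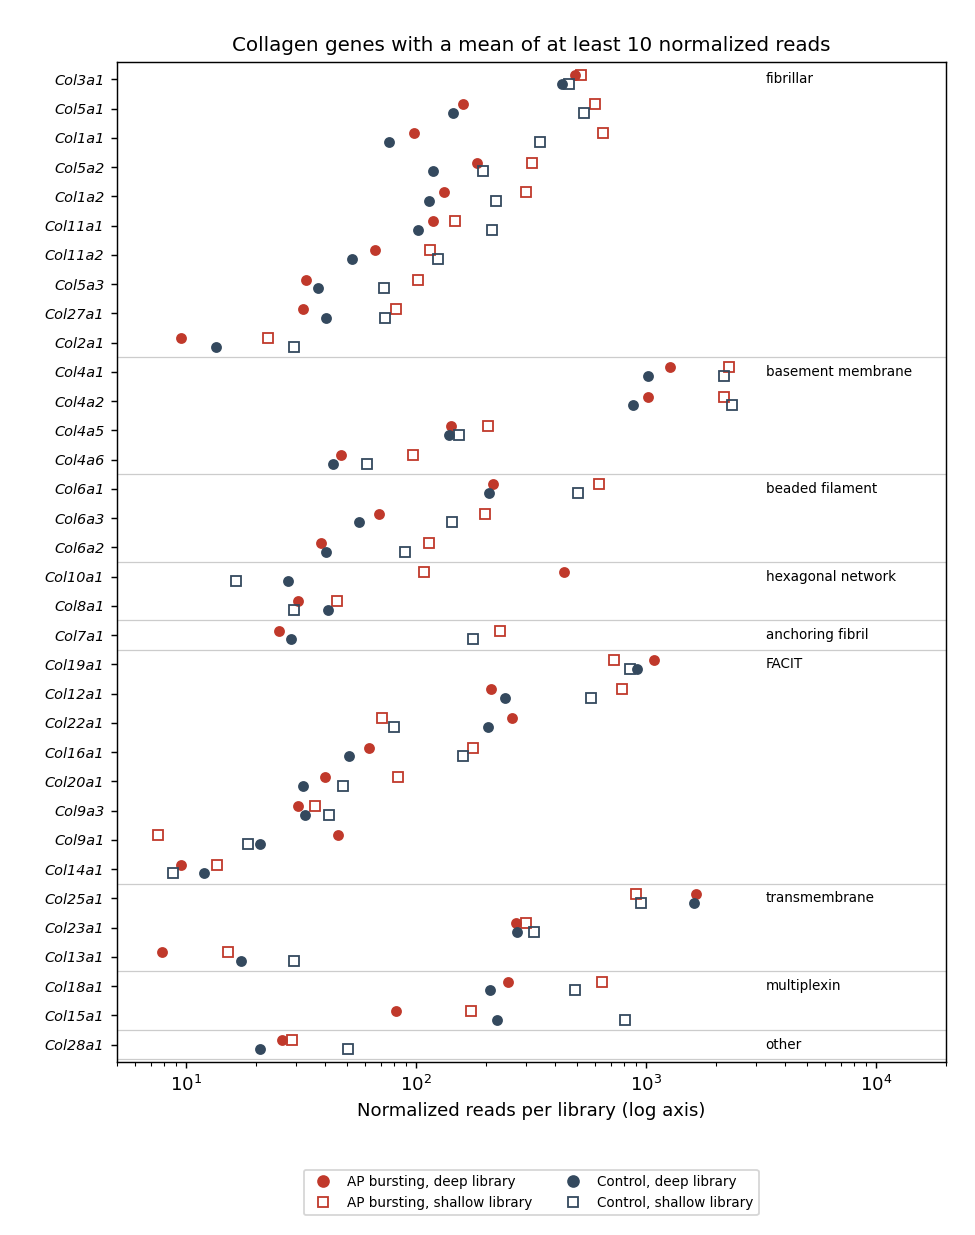
Normalized reads (log axis) of the 34 collagen genes with a mean of at least 10, ordered by class, with 1 point for each of the 4 libraries (red, AP bursting; dark blue, control; circles, deep; squares, shallow). For most genes red and blue points of the same library type lie close together, while Col10a1 and Col15a1 separate most by colour. In both groups 27 of the 34 genes are higher in the shallow library, and Col7a1 and Col1a1 separate most by library.

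Promoter windows are shown for the collagens that changed most and for the pair with the highest group means. The sequences come from RefSeq (GRCm38.p6, 250 bases before to 50 after the start), which holds windows for 32 of the 40 genes, and they are printed 5′ to 3′ on the gene's strand. Capitals mark TATAAA.
Col10a1, chr10:34389731-34390030, plus strand: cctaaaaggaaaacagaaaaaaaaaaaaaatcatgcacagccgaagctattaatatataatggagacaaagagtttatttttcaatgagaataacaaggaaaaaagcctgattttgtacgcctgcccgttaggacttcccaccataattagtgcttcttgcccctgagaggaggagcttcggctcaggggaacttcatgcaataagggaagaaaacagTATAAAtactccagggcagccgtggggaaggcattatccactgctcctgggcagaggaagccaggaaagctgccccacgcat
Col15a1, chr4:47207762-47208061, plus strand: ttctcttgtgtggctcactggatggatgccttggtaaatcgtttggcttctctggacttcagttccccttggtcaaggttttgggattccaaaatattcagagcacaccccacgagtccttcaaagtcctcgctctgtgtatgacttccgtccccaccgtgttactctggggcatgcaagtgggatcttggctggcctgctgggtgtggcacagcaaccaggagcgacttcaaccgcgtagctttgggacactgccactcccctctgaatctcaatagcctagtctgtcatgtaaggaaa
Col4a1 and Col4a2, shared stretch, chr8:11312777-11312854, plus strand: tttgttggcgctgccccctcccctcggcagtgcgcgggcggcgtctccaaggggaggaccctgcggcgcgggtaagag
The Col10a1 window holds TATAAA at position 219, counted from 1 at the 5′ end and so before the annotated start, and its GC content is 44.3%. TATAAA on either strand stood in 5 of 35 collagen windows and in 13.6% of the 32851 windows of all genes. No window printed here held TGACGTCA, the full cAMP response element, which was found in 1 of the 35 collagen windows (Col24a1) and 1.79% of all windows. TGANTCA, the AP-1 site, was found in 1 collagen window (Col6a1) and 7.81% of all windows. A CArG box was found in 0 collagen windows and 1.63% of all. Both strands were searched, and these matches say only which letters are in the windows.

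Col10a1 (ENSMUSG00000039462) encodes the chain of collagen X, a short network-forming collagen known from the growth plate, where hypertrophic chondrocytes make it. It stood at 438 and 107 normalized reads in the AP bursting libraries (deep and shallow; 557 and 71 reads), against 27.7 and 16.4 in the controls (deep and shallow; 37 and 15 reads). Both AP bursting libraries were above both controls, and the groups did not overlap. The authors' deposited table gives a 12.4-fold rise (adjusted p = 5.18e-05). The group means with SD were 273 ± 234 after AP bursting and 22.1 ± 8.01 in controls (n = 2 libraries each), so the AP bursting libraries differed widely from each other. Within the pairs the fold was 15.8 in the deep pair (exact 95% interval 11.3 to 22.7, which covers counting error only) and 6.55 in the shallow pair (3.72 to 12.3). limma with the replicate block gave a log2 fold of 3.29 ± 0.30 (SE; adjusted p = 7.17e-25), and limma without the block an adjusted p of 0.838. That SE comes from the trend over genes, while the pairs of Col10a1 gave log2 folds of 3.94 (deep) and 2.64 (shallow). The rank of Col10a1 by fold was 44 among the 143 genes higher in the authors' deposited table.

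Per kilobase of exon, Col10a1 stood at 87.2 normalized reads after AP bursting, rank 6 of the 39 collagens with a known length, against 7.05 and rank 26 in controls. The deep library weighs most in this: the level per kb was 140.1 (rank 4) and 34.3 (rank 12) in the AP bursting libraries (deep and shallow), against 8.86 (rank 16) and 5.24 (rank 29) in the controls. Col10a1 lies inside the gene Nt5dc1 on the opposite strand (GENCODE M21, GRCm38), with 18 exon bases in common, and the libraries do not keep strand. Nt5dc1 stood at 13.4 and 12.1 normalized reads in the AP bursting libraries (deep and shallow), against 14.2 and 2.19 in the controls. The part of Nt5dc1 transcripts in the Col10a1 values was not tested. The other short-chain network collagens gave no call. Col8a1, a vessel-wall and corneal network collagen, stood at 30.7 and 45.4 normalized reads in the AP bursting libraries (deep and shallow), against 41.2 and 29.5 in the controls, and the groups overlapped. Col8a2 was near the detection limit, with 1 to 4 reads per library.

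Col15a1 (ENSMUSG00000028339), a multiplexin of vascular and other basement membranes, was the collagen with the largest decrease among those with a mean of at least 10. It stood at 81.9 and 173 normalized reads in the AP bursting libraries (deep and shallow; 104 and 114 reads), against 225 and 810 in the controls (deep and shallow; 300 and 741 reads). Both AP bursting libraries were below both controls. The means were 127 ± 64.1 and 518 ± 414 (SD, n = 2 libraries each), and the authors' deposited table gives an adjusted p of 0.456 for the fold of 0.246, so the decrease did not pass there. The fold was 0.364 within the deep pair (exact 95% interval 0.289 to 0.457) and 0.213 within the shallow pair (0.173 to 0.260), again with counting error only. With the replicate block, limma gave a log2 fold of -1.84 ± 0.24 (SE; adjusted p = 1.51e-12). Among 13939 genes averaging at least 50 its fold in the authors' deposited table ranked 4, counted from the lowest. Per kilobase it stood at 20.04 normalized reads after AP bursting, rank 15 there and in each of the libraries, against 81.53 and rank 5 in controls. The control level was 35.4 per kb (rank 8) in the deep and 127.7 (rank 3) in the shallow library, so it rests largely on the shallow one. The call with the block was lost without a trend (adjusted p = 0.178) and without the block (adjusted p = 1.00). The other multiplexin, Col18a1, the precursor of endostatin, did not share the decrease: it stood at 251 and 642 normalized reads after AP bursting (deep and shallow), against 210 and 488 in controls, with a log2 fold of 0.33 ± 0.22 (SE; limma with the block, adjusted p = 0.406).

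**Figure D2:**
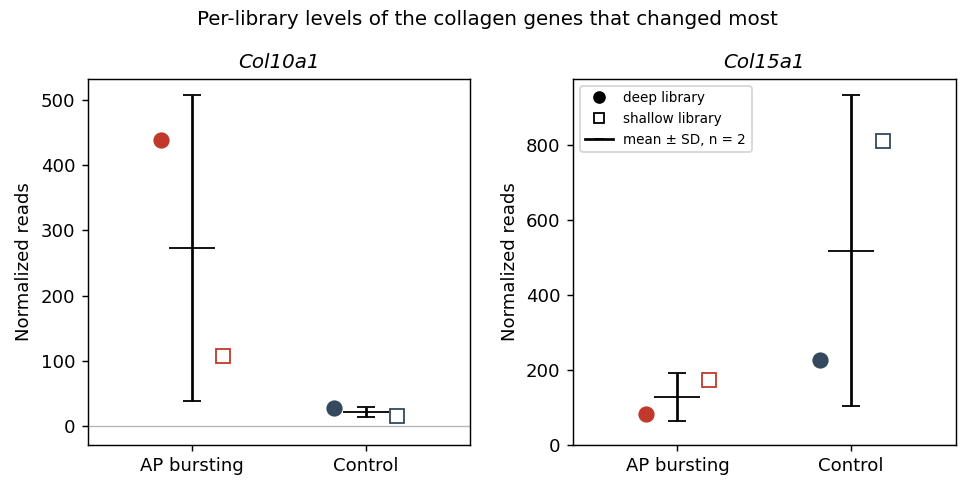
Normalized reads of Col10a1 (left) and Col15a1 (right) in AP bursting and control libraries, with circles for deep and squares for shallow libraries and bars for mean ± SD (n = 2). Col10a1 is at 438 and 107 after AP bursting, above both controls, and Col15a1 at 81.9 and 173, below both controls.

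Fibrillar collagens, 11 genes, gave 0 calls in the authors' deposited table and 1 with limma and the block. Col5a2, a chain that regulates the diameter of collagen I fibres, had 184 and 318 normalized reads in the AP bursting libraries (deep and shallow), against 118 and 195 in the controls (deep and shallow). The shallow control was above the deep AP bursting library, so the groups overlapped. The increase was nearly the same in both pairs, 1.57-fold (exact 95% interval 1.27 to 1.93) in the deep and 1.63-fold (1.33 to 2.00) in the shallow pair. limma with the block gave a log2 fold of 0.67 ± 0.25 (SE; adjusted p = 0.0486), a call lost without the block (adjusted p = 1.00), without a trend, with total-read scaling, with a minimum mean of 10, with no filter and with a pseudocount of 5. The authors' deposited table gives it an adjusted p of 1. Its neighbour Col3a1, a chain of elastic tissues, had 491 and 521 normalized reads after AP bursting, against 429 and 460 in controls, and a log2 fold of 0.19 ± 0.21 (SE; adjusted p = 0.681 with the block). Its groups did not overlap, and its pairs gave log2 folds of 0.20 (deep) and 0.18 (shallow). The difference was smaller than the SE of the fit, which comes from the trend over genes.

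Col1a1, a main chain of skin and bone collagen, was looked at after its value was seen, since the authors' deposited table has it at 1.77-fold (adjusted p = 1). It stood at 97.6 and 648 normalized reads in the AP bursting libraries (deep and shallow), against 75.7 and 346 in the controls (deep and shallow). Libraries of 1 group differed far more than the groups did. The fold was 1.29 (exact 95% interval 0.984 to 1.69) within the deep pair and 1.87 within the shallow pair (1.62 to 2.17), and limma with the block gave an adjusted p of 0.0664. Col5a1, a partner chain of Col5a2, had 160 and 596 normalized reads after AP bursting, against 144 and 536 in controls, with groups that overlapped (log2 fold 0.15 ± 0.23, SE, adjusted p = 0.774 with the block). The remaining 6 fibrillar genes with a mean of at least 10 had folds of 0.747 to 1.29 in the authors' deposited table, and Col24a1 held 0 to 3 reads per library.

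Basement membrane collagen IV was the most abundant group per length and gave no call, 0 by the authors' deposited table and 0 by limma with the block. Col4a2 and Col4a1, the chains of the common network around vessels, ranked 1 and 2 per length by the means of both groups. They stood at 242 and 238 normalized reads per kb after AP bursting and at 244 and 213 in controls. The shallow libraries weigh most in this. In the deep libraries Col4a2 was at 153.8 and 131.6 per kb (AP bursting and control), under Col19a1 at 155.9 and 132.6. Col4a1 had 1265 and 2283 normalized reads in the AP bursting libraries (deep and shallow), against 1012 and 2168 in the controls. Col4a2 had 1018 and 2181 normalized reads there, against 871 and 2357 in the controls. For both genes the groups overlapped, and the shallow library held more than the deep one in each group, with log2 differences of deep minus shallow of -0.85 and -1.10 for Col4a1 and -1.10 and -1.44 for Col4a2 (AP bursting and control). Their log2 folds differed little within a pair, 0.32 and 0.22 for Col4a1 and Col4a2 in the deep pair and 0.07 and -0.11 in the shallow pair. These genes start head to head, and their promoter windows share the 78 bases printed above, of which 73.1% are G or C.

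Col4a5 and Col4a6, an X-linked pair of chains found in smooth muscle and other basement membranes, also start near each other. Col4a5 stood at 142 and 204 normalized reads in the AP bursting libraries (deep and shallow), against 139 and 153 in controls. Col4a6 stood at 47.2 and 96.9 after AP bursting, against 43.5 and 61.3 in controls. Both pairs of libraries gave positive log2 folds for both genes, 0.03 and 0.12 in the deep pair and 0.41 and 0.65 in the shallow pair, and neither passed a test (adjusted p of 0.688 and 0.524 with the block). Col4a3 and Col4a4, the chains of kidney and inner ear basement membranes, held at most 10 reads in any library.

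Collagen VI, which forms beaded filaments around cells, gave 0 calls in both tests. By group means its 3 chains had log2 folds of like size at different levels. Col6a1 had 215 and 624 normalized reads in the AP bursting libraries (deep and shallow), against 207 and 503 in controls. Col6a3 had 68.5 and 198 there, against 56.2 and 143 in controls, and Col6a2 had 38.6 and 114, against 40.5 and 89.7. The groups overlapped for each chain. The authors' deposited table gives log2 folds between 0.22 and 0.42, each with an adjusted p of 1. Within the deep pair the log2 folds were 0.05 (Col6a1), 0.28 (Col6a3) and -0.07 (Col6a2). Within the shallow pair they were 0.31, 0.47 and 0.34, so the pairs of Col6a2 had opposite signs. Col7a1, which anchors skin epithelium to the layer below, stood at 25.2 and 232 normalized reads after AP bursting, against 28.5 and 176 in controls, overlapping groups with the widest difference between libraries of any collagen with a mean of at least 10.

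FACIT collagens gave 0 calls in both tests. Col19a1, which interneurons of the hippocampus make and which acts in the formation of inhibitory synapses in mice, had 1074 and 724 normalized reads in the AP bursting libraries (deep and shallow), against 914 and 849 in controls. By group means it ranked 3 per length in both groups, at 130 and 128 normalized reads per kb after AP bursting and in controls. Its groups overlapped, and the log2 fold of 0.00 ± 0.19 (SE; adjusted p = 0.998 with the block) was the mean of 0.23 (deep pair) and -0.23 (shallow pair). Col12a1, a fibre-associated collagen of dense connective tissue, had 211 and 786 normalized reads after AP bursting, against 244 and 575 in controls, with opposite signs in the pairs (-0.21 deep, 0.45 shallow, on the log2 scale). The other 6 FACIT genes with a mean of at least 10 had folds between 0.899 and 1.54 in the authors' deposited table, and Col9a2 held 2 to 5 reads per library.

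Transmembrane collagens gave 0 calls in both tests, and the 2 most abundant had levels nearly equal between the groups. Col25a1, also known as CLAC-P, a neuronal collagen whose ectodomain is found in amyloid plaques, had 1635 and 899 normalized reads in the AP bursting libraries (deep and shallow), against 1610 and 948 in controls. Col23a1 had 272 and 298 there, against 274 and 324. The groups overlapped for Col25a1 and for Col23a1, and their log2 folds were -0.03 ± 0.19 and -0.06 ± 0.23 (SE, limma with the block; adjusted p = 0.959 and 0.919). Col13a1, named after its value was seen, had 7.87 and 15.1 normalized reads after AP bursting (10 and 10 reads), against 17.2 and 29.5 in controls (23 and 27 reads). Both of its AP bursting libraries were below both controls, and the difference did not pass (adjusted p = 0.139 with the block). Col17a1 held 3 to 7 reads per library. Col28a1, which fits no other class, had 25.98 and 28.76 normalized reads after AP bursting, against 21.0 and 50.3 in controls, and the groups overlapped.

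**Figure D3:**
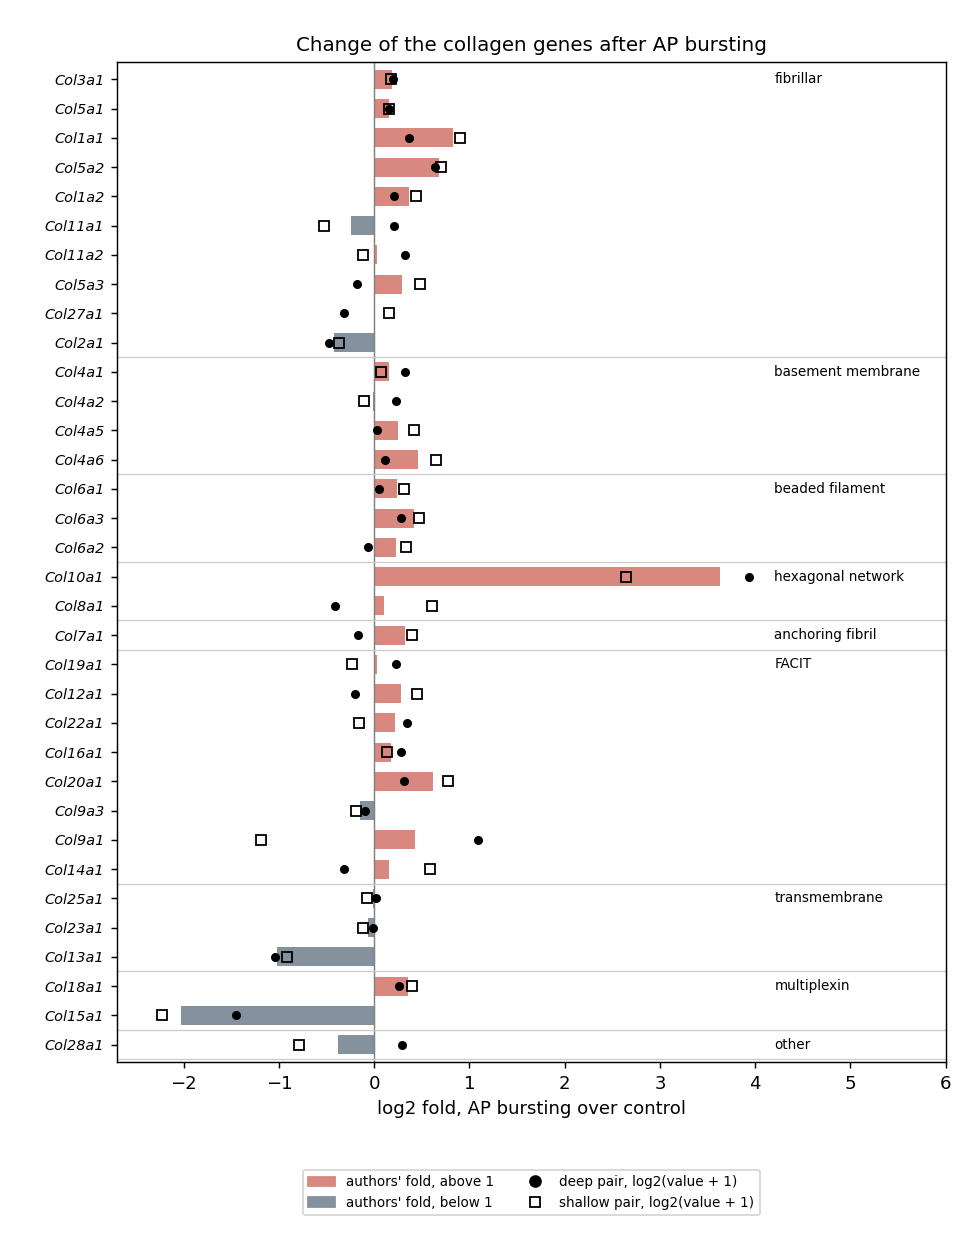
Log2 fold of AP bursting over control for the 34 collagen genes averaging at least 10, by class. Bars are the authors' fold and symbols the fold within the deep (circle) and shallow (square) pair on the log2(value + 1) scale. Both pairs are far from 0 on the same side for Col10a1 and Col15a1, and the pairs fall on opposite sides for 15 of the 34 genes.

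Collagen levels differed widely between the libraries of a group, and in the same way in both groups. Of the 34 genes averaging at least 10, 27 (79.4%) were higher in the shallow library in both groups, where 39.9% of all genes at that level were. The median log2 difference of deep minus shallow was -0.94 after AP bursting and -0.94 in controls, beside 0.06 and 0.05 over all genes. All 10 fibrillar, all 4 basement membrane and all 3 beaded filament genes at that level were higher in the shallow library in both groups. The 5 that were higher in the deep library in both groups were Col10a1, Col19a1, Col22a1, Col9a1 and Col25a1. For Col25a1 the log2 difference was 0.86 after AP bursting and 0.76 in controls, and for Col7a1 it was -3.15 and -2.59.

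Base composition moved with this difference. Over 12674 genes averaging at least 50, the log2 difference of deep minus shallow correlated with the GC content of the transcript at r = -0.68 after AP bursting and -0.72 in controls (Spearman -0.70 and -0.75). Over 33 collagens the values were -0.54 and -0.63 (Spearman -0.57 and -0.56). These correlations run across genes of the same libraries, which are not independent replicates. The median GC content was 55.7% for the collagens and 49.7% for all genes. The sum of 8 mural cell markers was also higher in the shallow library, at 373 and 646 normalized reads after AP bursting (deep and shallow), against 333 and 549 in controls. Cspg4 (24.4 and 174, against 27.7 and 106) and Pdgfrb (38.6 and 124, against 41.2 and 88.6) hold much of this difference. Rgs5, the most abundant of the list, was at 254 and 242, against 193 and 243. The astrocyte, oligodendrocyte lineage and microglia sums given below were higher in the shallow library as well. Endothelial markers summed over the 7 of 8 genes in the table to 77.9 and 148 after AP bursting, against 115 and 128 in controls. Markers of fibroblasts and meninges without collagens summed over 9 genes to 1505 and 1073 after AP bursting, against 1350 and 813 in controls. Dcn was the largest, at 949 and 490, against 830 and 413, above the other markers together except in the shallow AP bursting library. Those other markers summed to 556 and 583 after AP bursting, against 520.1 and 399 in controls. Of the 9 genes 2 were higher in the shallow library in both groups and 3 in the deep one. No marker of these lists was at 0 in all libraries, and Slc22a6 held 1 read in all. The part of base composition or of cell makeup in the collagen values was not tested. The fold of AP bursting over control barely moved with GC content over the 33 collagens (r = -0.16, Spearman -0.06).

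**Figure D4:**
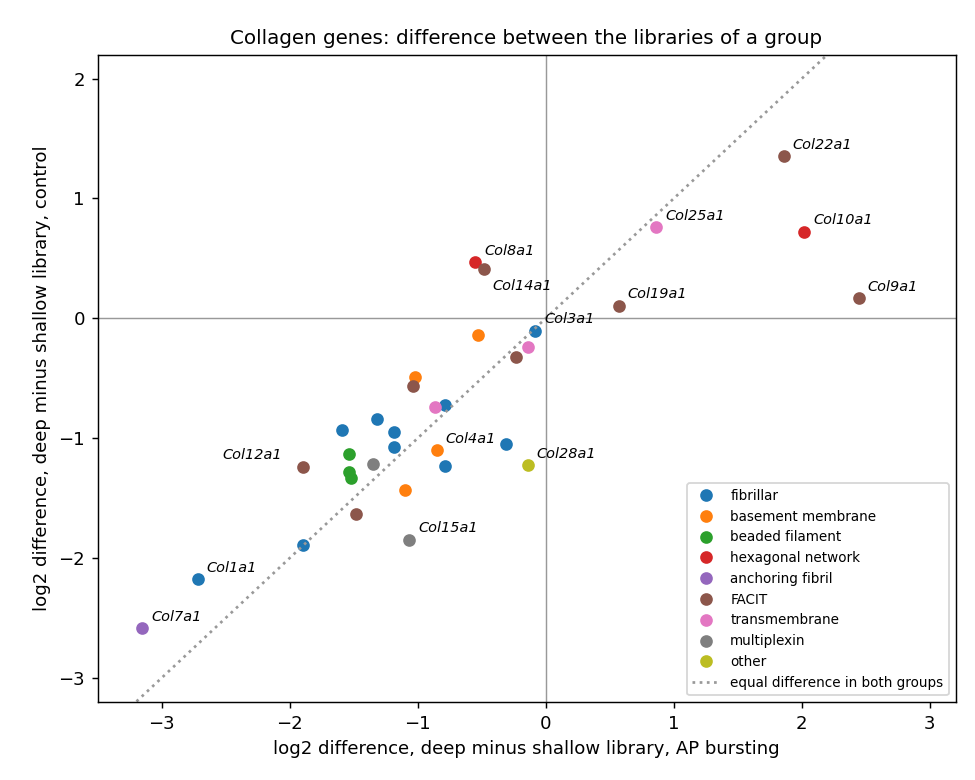
Log2 difference of the deep minus the shallow library within AP bursting (horizontal axis) and control (vertical axis), 1 point per collagen gene with a mean of at least 10, coloured by class. Most points lie near the dotted line of equal difference, at lower left (27 of 34 genes), while Col22a1, Col25a1, Col10a1, Col9a1 and Col19a1 lie at upper right.

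Neuronal markers were abundant in both groups, with means over both groups between 17307 and 32975 normalized reads for the 5 of 7 marker genes found in the table, so the cultures hold neurons as labelled. No marker of the mural, endothelial or fibroblast lists was called in the authors' deposited table. With the block, Aldh1a2, a retinoic acid synthesis enzyme of the meninges, was higher at 35.4 and 37.8 normalized reads after AP bursting, against 16.5 and 6.56 in controls (adjusted p = 0.000726). Twist1, a mesenchymal transcription factor, was lower at 5.51 and 3.03, against 17.99 and 12.03 (adjusted p = 0.0217 with the block). The values of Twist1 rest on 7 and 2 reads after AP bursting, against 24 and 11 in controls. Of the 8 mural and 7 endothelial markers 0 were called with the block, where it called 6.87% of all genes higher and 6.1% lower. For so few genes a count of 0 is near those shares. A mean under 10 was found for 2 of the mural and 3 of the endothelial markers, so the count does not show that vessel cells were unchanged. The part of vessel cells in the values of Col15a1 was not tested. Astrocyte markers summed to 15631 and 21655 normalized reads after AP bursting, against 14382 and 16217 in controls, and microglia markers to 59.8 and 80.2, against 42.0 and 66.7. Oligodendrocyte lineage markers summed to 3370 and 6860, against 3393 and 4868. These lists gave 0 calls in both tests.

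Of 55 genes that process, sense or bind collagen, limma with the block called 7 higher (12.7%) and 1 lower (1.82%), where it called 6.87% of all genes higher and 6.1% lower. The authors' deposited table called 0 of them, where it called 0.61% of all genes higher. Since the lists were chosen with earlier results of these data known, their shares and medians are description only. Of the 29 genes of collagen processing, limma with the block called 4 higher and 1 lower. Tll1, a tolloid-like protease that cuts off procollagen C-propeptides, had 629 and 347 normalized reads in the AP bursting libraries (deep and shallow), against 166 and 83.1 in controls. Both AP bursting libraries were above both controls, with a log2 fold of 1.98 ± 0.24 (SE; adjusted p = 8.22e-15 with the block). The authors' deposited table lists it at 3.91-fold (adjusted p = 0.168). Plod2, a lysyl hydroxylase of collagen telopeptides, had 239 and 450 normalized reads, against 190 and 151 in controls, and log2 folds of 0.33 (deep pair) and 1.57 (shallow pair; adjusted p = 0.00109 with the block). The prolyl hydroxylase subunit P4ha1 and Ctage5, which acts in collagen export from the endoplasmic reticulum, had log2 folds of 0.51 and 0.62 (adjusted p = 0.0460 and 0.0190 with the block). Adamts2, which cuts off procollagen N-propeptides, was lower, at 7.87 and 48.4 normalized reads after AP bursting, against 21.7 and 84.2 in controls (log2 fold -1.07, adjusted p = 0.0354 with the block). Its deep AP bursting library held 10 reads. The groups overlapped for Adamts2 and for Ctage5.

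Of 10 measured collagen receptors 1 was called higher and 0 lower with the block, a count too small to set against those shares. This was Mrc2, the endocytic receptor that takes up collagen fragments, at 63.0 and 163 normalized reads after AP bursting, against 39.7 and 83.1 in controls (log2 fold 0.81, adjusted p = 0.0498). Among 16 matrix genes that bind or lie beside collagen, 2 were higher and 0 lower with the block. This count is also too small to set against the 6.87% of all genes higher and 6.1% lower. Lamc1, the laminin gamma chain of most basement membranes, had 1064 and 3123 normalized reads after AP bursting, against 685 and 1151 in controls (log2 fold 1.04, adjusted p = 7.73e-07). Fn1, fibronectin, had 441 and 2513, against 338 and 1422 (log2 fold 0.60, adjusted p = 0.0190). The groups of Lamc1, Fn1 and Mrc2 overlapped and the shallow libraries held more of each. The median log2 fold of genes with a mean of at least 10 was 0.28 for processing, 0.29 for receptors and 0.46 for binding matrix genes, beside -0.01 over all genes. Within the deep and the shallow pair the medians were 0.09 and 0.35 for processing, 0.30 and 0.25 for receptors and 0.14 and 0.65 for binding matrix genes, so the matrix median rests mostly on the shallow pair.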

How the data were processed

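A single table with 23453 Ensembl genes was deposited. Its columns, per the file headers, are the normalized signal (normalized counts) of each group as a mean, the fold (ratio) of AP bursting over basal activity, and an adjusted p-value by the authors. DESeq 1.12.0, TopHat 1.2.0, SAMtools 0.1.19 and the build mm9 are named in the submitters' processing notes. How reads were counted, and with which annotation, is not stated there. Libraries were not strand-specific, per the labels' protocols.

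The main comparison is the authors' fold with their adjusted p at 0.05. Each mean was split into the whole reads of its 2 libraries by searching for the single pair of counts that gives it at its 10 printed digits. A single pair was found for 98.8% of control and 99.5% of AP bursting values. Moved values found a pair in 2 (AP bursting) and 7 (control) of 1000 cases. On simulated means, made from the same steps and with the steps taken as known, a single pair was found for 2000 of 2000 in each group. A single pair had to be the right one there, so this does not measure the accuracy of the reads. The size factors this implies were within 0.204% of median-of-ratios factors. Over 13648 genes averaging at least 50, the deep minus shallow differences of the groups correlated at r = 0.878, the ground for the pairing, since the table names no replicate.

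limma 3.58.1 (R 4.3.3) was fitted with a trend on log2(value + 1) for 20226 genes averaging at least 1, with and without the pair as a replicate block. A run on simulated data gave both groups the same pair difference and all genes the same noise beyond counting. It therefore cannot speak for genes whose pairs differ. The table holds means, and the planned count test was not run on the reads worked out from them. Those reads went into limma and the exact intervals instead. Exact intervals are conditional binomial. Exon lengths and GC content come from GENCODE M21 (39 of 40 collagens matched), which is not the authors' build. The members and gene lists were chosen with earlier results of these data known, and all 40 members may be named. Values in every library were given for called members, for the 2 highest per class and for neighbouring genes. List genes were named if called. With 2 against 2 libraries an exact permutation test cannot go below p = 0.333, so none was run. Other per-sample columns left unused numbered 0.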

Additional observations from a re-analysis of the deposited data

How the results depend on the processing

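In the fits with the block, collagens called higher numbered 2 (1 with total-read scaling, a minimum of 10, no filter or a pseudocount of 5; 2 with a pseudocount of 0.5; 0 without a trend, where 5 had an unadjusted p under 0.05), and called lower 1 under each of these but 0 without a trend. limma without the block called 0, and leave-one-out fits called 0 in each direction. The log2 fold of Col10a1 was 3.29 without the block (adjusted p = 0.838) and 3.29 with the block and no trend (adjusted p = 0.160), each past no threshold, 2.64 in the shallow pair, and 2.28 to 4.30 with 1 library left out. Col15a1 passed with the replicate block at -1.84, at -1.98 with total-read scaling, -1.84 with a pseudocount of 0.5, -1.80 with one of 5, -1.84 with a minimum of 10 and -1.84 with no filter. It did not pass without the block (-1.84, adjusted p = 1.00) or without a trend (-1.84, adjusted p = 0.178), and stood at -1.45 in the deep pair and at -2.76 to -0.91 with 1 library left out. The collagen median was 0.15 with a minimum of 1, 0.22 with one of 50, 0.17 (deep pair) and 0.17 (shallow pair), and -0.019 with total-read scaling. Some folds changed sign against the authors' log2 fold. Col4a2 was at 0.057 with the block, no block, no trend, both filters and a pseudocount of 0.5, and at 0.056 with one of 5. With total-read scaling Col6a2 was at -0.011, Col8a1 -0.048, Col7a1 -0.034, Col19a1 -0.15 and Col12a1 -0.026. The authors' log2 folds of these 5 were 0.22, 0.11, 0.33, 0.028 and 0.28. That scaling also lowered the median of all genes, to -0.16 from -0.015 with the block. With 1 library left out and no block, log2 folds ranged from -0.79 to 1.10 for Col5a1, -0.73 to 1.99 for Col1a1, -0.35 to 0.75 for Col4a1, -0.66 to 0.77 for Col4a2, -0.040 to 0.49 for Col4a5, -0.13 to 0.90 for Col4a6, -0.58 to 0.95 for Col6a1, -0.63 to 0.90 for Col6a2, -0.39 to 1.13 for Col6a3, -0.18 to 0.37 for Col8a1, -1.46 to 1.69 for Col7a1, -0.28 to 0.29 for Col19a1, -0.82 to 1.07 for Col12a1, -0.46 to 0.40 for Col25a1, -0.19 to 0.057 for Col23a1, -0.35 to 1.00 for Col18a1 and -0.86 to 0.37 for Col28a1. The lone library of a group was assumed to vary like the other group. These ranges follow from the libraries' own differences, since leaving 1 out unbalances the pairs. Depth limits the 6 collagens with a mean under 10, which held 0 to 10 reads per library.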
